A study of Arabidopsis thaliana with 18 samples.

Results

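The genes encoded by the mitochondrial genome of Arabidopsis were followed in rosettes of plants with raised or lowered SnRK1, the protein kinase complex that plants activate when energy runs low. The deposited table lists 152 mitochondrial genes, recognised by identifiers that begin with ATMG, among 32833 genes in all. Of these, 38 were kept because their normalized value came to 10 or more in no fewer than 3 of 18 libraries, and 114 were not. The rule used no label of genotype or time. Since 3 libraries are also the size of a group, a gene could be kept through a single group where it is high.

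The study grew SnRK1α1-OE, sesquiα2 and Col-0 plants for 20 days in a 12 h light and 12 h dark cycle and asked whether SnRK1 shapes gene expression over a normal day and night. SnRK1α1-OE carries a 35S::SnRK1alpha1 transgene in the Col-0 background, so the kinase subunit is made under a promoter active in most tissues. The sesquiα2 line combines the insertion alleles GABI_579E09 (-/-) and WiscDsLox384F5 (+/-), the second of them heterozygous. Col-0 is the wild type. Whole rosettes were harvested without treatment at EN, the end of the night (24 h after dawn), and at ED, the end of the day (12 h after dawn), which gave 6 groups of 3 libraries, each library a pool of several rosettes. The sesquiα2 seedlings spent 6 days on BASTA plates before soil whereas SnRK1α1-OE and Col-0 were sown on soil, so the mutation and this early growth cannot be told apart.

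Plant mitochondria keep a genome that encodes their own ribosomal RNAs, a few ribosomal proteins, some subunits of the respiratory complexes and of ATP synthase, factors for cytochrome c maturation and a large number of open reading frames (ORFs) with no assigned role. All other respiratory subunits, and the polymerases, maturases and RNA-processing proteins that act on mitochondrial transcripts, come from nuclear genes. In contrast to most nuclear mRNAs, plant mitochondrial transcripts carry no lasting poly(A) tail, and a tail usually marks them for decay. Since these libraries were made from RNA captured on poly(T), the values describe the mitochondrial RNA that passed this step, and how much was lost at it was not measured.

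Much of the Arabidopsis mitochondrial genome also exists as DNA in the nucleus, which bears on every count below. In the reference assembly TAIR10.1, 67.6% of all 100-base windows of the 367808-base mitochondrial genome had an exact nuclear copy, and 98.6% of the nuclear copies lay on chromosome 2. The insertion there was placed between bases 3239038 and 3509765, and the share of copies inside these bounds was not computed. Gene cob, the cytochrome b subunit of complex III, shows the extreme case. Its first 60 coding bases (MT:182799-182858, minus strand) and those of the nuclear copy (chr2:3450863-3450922, plus strand) are identical, and no read was counted for it in any library:
cob: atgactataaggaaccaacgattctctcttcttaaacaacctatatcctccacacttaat
cob copy: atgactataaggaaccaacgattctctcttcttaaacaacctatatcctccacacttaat
By contrast, no 100-base window of cox1 (complex IV) or nad9 (complex I) had an exact nuclear copy, and both genes had reads in every library. The first 60 coding bases of cox1 (MT:116286-116345, minus strand) and nad9 (MT:24665-24724, plus strand) read:
cox1: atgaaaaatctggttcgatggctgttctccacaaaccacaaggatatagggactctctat
nad9: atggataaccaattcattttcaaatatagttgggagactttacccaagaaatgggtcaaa
In between stand genes whose copies differ by scattered bases. The next pairs show such a difference in matR, an intron maturase (MT:231128-231158, plus strand, and chr2:3402628-3402658, minus strand), and in nad7, a complex I subunit (MT:239362-239392, minus strand, and chr2:3394392-3394422, plus strand), with the differing base in capitals:
matR: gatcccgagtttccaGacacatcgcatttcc
matR copy: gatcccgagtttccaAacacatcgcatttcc
nad7: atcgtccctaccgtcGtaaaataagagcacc
nad7 copy: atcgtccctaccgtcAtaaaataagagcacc
All these sequences are RefSeq's, from TAIR10.1. The authors named TAIR10 as their build, and its mitochondrial sequence is not the one in TAIR10.1, so the windows describe the reference used here.

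Among the 101 mitochondrial genes that could be matched by name to this reference, genes without a nuclear copy were the better counted ones. The 21 genes with no copied window had a median value of 31.7 per kb of length, and 12 of them (57.1%) met the threshold. In the 33 genes with some copied windows the median was 5.0 per kb and 13 (39.4%) met it. The 47 genes copied over their whole length had a median of 0.154 per kb, 5 (10.6%) met it, and 20 were at 0. COB, NAD6, RPL5 and CCB256 belonged to those 20 (the last 3 encode or are named for a complex I subunit, a ribosomal protein and a cytochrome c maturation factor). How reads that fit both genomes were counted is not given in the sources used here, and its part in these differences was not tested. On the nuclear side, 125 genes of the table consisted to at least 50% of copied windows, 17 of them met the same threshold, and their summed value averaged 563.6 per library. The highest were AT2G07715 (annotated as a nucleic acid-binding protein, mean value 125.1), AT2G05215 (67.4) and AT2G07698 (annotated as the alpha subunit of the F1 ATPase, 59.4).

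**Figure D1:**
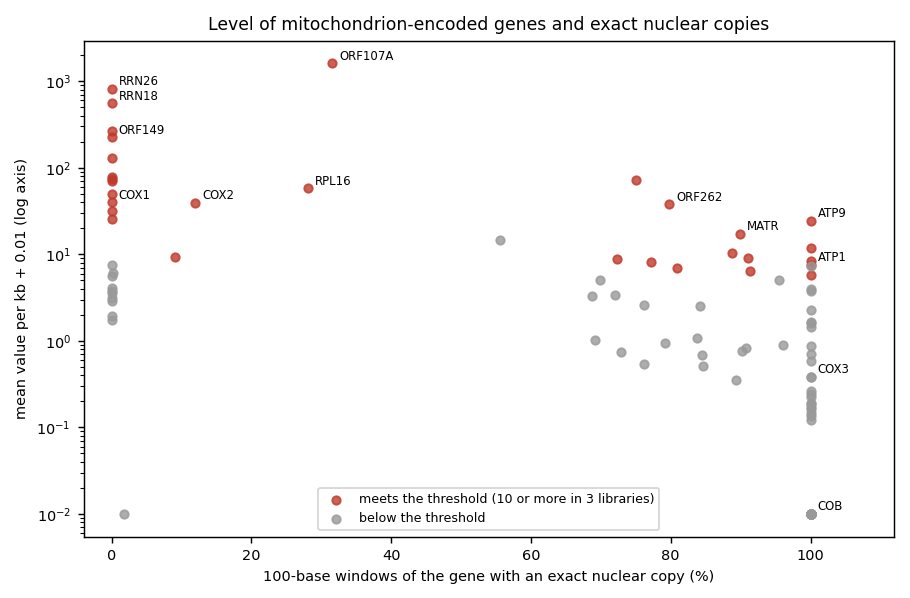
Mean deposited value per kb of gene length (log axis, 0.01 added so that zeros can be drawn) against the percentage of each gene's 100-base windows that have an exact nuclear copy, for 101 mitochondrion-encoded genes; red points are genes of at least 10 in 3 libraries, grey points the others. Of the 12 red points at 0% the rRNA genes RRN26 and RRN18 are the highest, and most points at 100% are grey.

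The 18 libraries held 35050877 to 40416618 reads, and 3802 to 5798 of them fell in the 38 genes, or 0.00986% to 0.0146% of a library. Chloroplast-encoded genes at the same threshold (113 genes) took 0.789% to 1.27%. The SnRK1α1 gene AT3G01090 had values of 28713 to 32681 in SnRK1α1-OE against 1685 to 1991 in Col-0, and of 1672 to 1950 in sesquiα2, whose insertion may leave transcript that is still counted. Where reads lay within that gene was not analysed here. KIN11 (AT3G29160), the gene of the second catalytic subunit, had a log2 difference of -0.55 in sesquiα2 against Col-0 at ED (SE 0.10, limma adjusted p = 0.0699) and of -0.14 at EN (SE 0.11, adjusted p = 0.526). Leaf mesophyll markers summed to at least 1088000 in every library, and the 5 root markers to at most 24.29.

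Ribosomal RNA made up most of what was counted. RRN26, the RNA of the large subunit of the mitochondrial ribosome, and RRN18, that of the small subunit, held 69.12% of the summed value of the 38 genes, and together with ORF107A 80.44%. Of ORF107A (MT:143781-144104, plus strand), 185 bases overlap rrn26 (MT:140797-143965, minus strand) on the opposite strand. Whether the counting kept strands apart is not given in the sources used here, so reads of RRN26 and ORF107A cannot be told apart in the overlap. ORF111D likewise lies 10 bases from rrn5 and 298 bases from rrn18, on their strand.

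Scaled by the gene length in the table, the order of mean levels was led by ORF107A with 1610 per kb, RRN26 with 820.6 and RRN18 with 557.6. NAD5B followed with 347.9, but it is a 22-base row, one exon of a trans-spliced complex I gene, and its level per kb rests on a mean value of 7.65. RRN5, the 5S rRNA, had 264.8 per kb, ORF149 223.9, ATMG09730 152.1 and ORF111D 129.9. Rows named for proteins of known role began with NAD4L at 78.6 and NAD9 at 73.5, both complex I subunits. ATMG00090 and ORF25, which were not matched to the reference by name, had 62.1 and 46.1 per kb. RPL16, a ribosomal protein of the large subunit, had 57.7 per kb. The complex IV subunits COX1 and COX2 stood at 39.9 and 39.4, and ATP6-2, a subunit of the membrane part of ATP synthase, at 25.4. MATR had 17.3 per kb. CCB452 was lowest of the 38 with 5.79. Apart from the 3 rRNA genes and ORF107A, the remaining 34 genes together summed to 680 to 1051 per library, so single values of these genes rest on few reads.

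**Figure D2:**
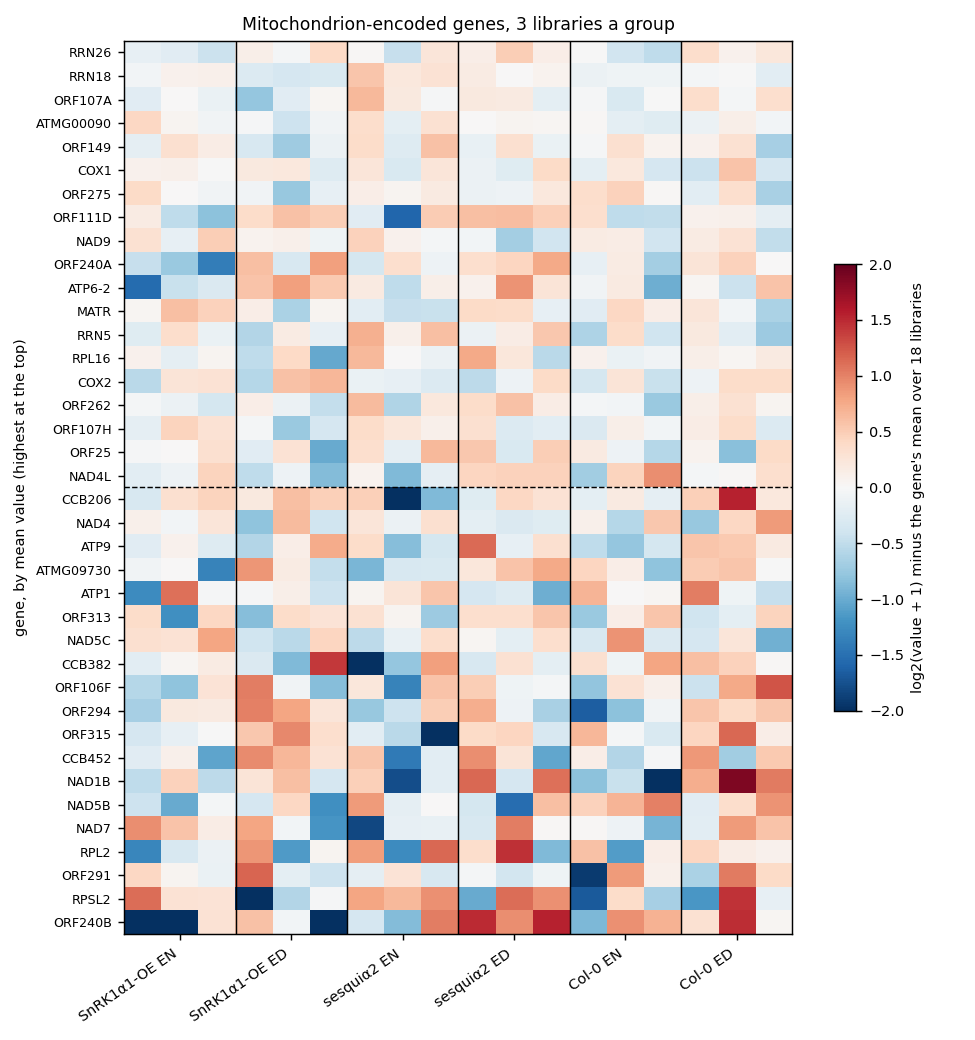
Level of each of the 38 genes in each library, as log2 of the deposited value plus 1 minus the gene's mean over the 18 libraries (blue lower, red higher, clipped at 2); columns are the 3 libraries of each of 6 groups, genes are ordered by mean value, and the dashed line parts the 19 genes at 10 or more in all 18 libraries from the other 19. Colours grow stronger towards the bottom, where values are lowest.

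A total of 19 genes reached 10 in all 18 libraries, 5 reached 100 in at least 3, and 33 had at least 1 read in every library. For the 19 genes with a mean value under 20, the variance within groups was averaged over the groups and divided by the mean over the 18 libraries. This ratio was 1.26 to 3.73 (median 1.94), where pure counting would give about 1. Just inside the threshold lay ORF291, for which 3 libraries reached 12.08 or more, RPL2 with 12.24 and RPSL2 with 12.57. Just outside lay NAD1C, for which 3 libraries reached 9.75 or more, YMF19 with 9.61 and ORF113 with 9.48.

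The first comparison asked whether the SnRK1 lines differed from Col-0 in mitochondrial RNA, and no gene of the 38 was called in either line at either time. A gene was called when limma gave a Benjamini-Hochberg adjusted p under 0.05 over all genes tested and a log2 difference of at least 1. Because the libraries are bulk samples, less RNA per cell and fewer cells of a type cannot be told apart in any of these comparisons.

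In SnRK1α1-OE at ED, 0 of 32 genes tested were called by limma and 0 by edgeR, against a background of 0.179% of 19576 genes. At an unadjusted p under 0.05 limma found 1 of the 32, against 24.9% of all genes. The median log2 difference was -0.17 for the mitochondrial genes and -0.12 for all genes. That 1 gene was ORF107A, with values of 300, 435 and 522 in SnRK1α1-OE against 652, 498 and 646 in Col-0 (log2 difference -0.54, SE 0.21, adjusted p = 0.171). The groups overlapped for ORF107A. Those of 4 genes did not overlap: ORF111D was higher in every SnRK1α1-OE library (background 11%), and NAD4L, NAD1B and RRN18 were lower (background 20.4%), NAD1B having passed the filter on low values only through Col-0. RRN18 had 883, 849 and 863 in SnRK1α1-OE against 1040, 1060 and 926 in Col-0, a log2 difference of -0.22 (SE 0.10, adjusted p = 0.226).

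In SnRK1α1-OE at EN, 0 of 26 genes tested were called by limma, 0 by edgeR and 0 at an unadjusted p under 0.05, with backgrounds of 0.067% called and 3.94% at the unadjusted p. The median log2 difference was 0.06, against 0.03 for all 19408 genes. Only RRN18 of the genes tested had groups that did not overlap (higher, background 7.01%, and 0 were lower, background 3.28%), with 1030, 1130 and 1150 in SnRK1α1-OE against 978, 1010 and 1010 in Col-0. Its log2 difference was 0.14 (SE 0.09, adjusted p = 1).

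The sesquiα2 rosettes at ED gave 0 calls among 34 genes tested with limma and 0 with edgeR (background 0.271%), and 1 gene at an unadjusted p under 0.05 (background 14.2%). Medians were 0.06 for mitochondrial genes and 0.00 for all genes. The 1 gene was ORF111D, with 61.9, 62.8 and 56.6 in sesquiα2 against 43.1, 43.6 and 35.8 in Col-0. Its log2 difference of 0.56 had an SE of 0.24 and an adjusted p of 0.348. ORF111D, NAD4L and RRN18 were higher in every sesquiα2 library (background 11.2%) and 0 genes were lower in every one (background 9.21%).

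At EN the sesquiα2 comparison had the highest background among those with Col-0 (1.21% called), and still 0 of 26 genes tested were called by limma and 0 by edgeR. With an unadjusted p under 0.05 stood 1 gene, RRN18 (background 18.8%). RRN18 had 1560, 1230 and 1310 in sesquiα2 against 978, 1010 and 1010 in Col-0. All 3 sesquiα2 libraries lay above all 3 of Col-0 (background 18.8% of all genes), no gene was lower in this way (background 6.67%), and the log2 difference was 0.44 (SE 0.11, adjusted p = 0.0712). A single fit of all 18 libraries gave it an adjusted p of 0.0126, and leaving out Col-0 EN replicate 1 gave 0.0202, while the range over all libraries left out in turn reached 0.279. RRN26, from the other ribosomal subunit, had 2100, 1500 and 2440 in sesquiα2 against 2060, 1580 and 1450 in Col-0, with overlapping groups and a log2 difference of 0.24 (SE 0.19, adjusted p = 0.540).

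These comparisons could not have shown small changes. Over the comparisons of 6 libraries the median half-width of a mitochondrial gene's 95% interval was 0.78 to 0.90 on the log2 scale, and the smallest, those of RRN18, were 0.21 to 0.25. These intervals are not adjusted for the number of genes tested. A call needed an adjusted p under 0.05 and a log2 difference of at least 1, so smaller differences could not be called.

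**Figure D3:**
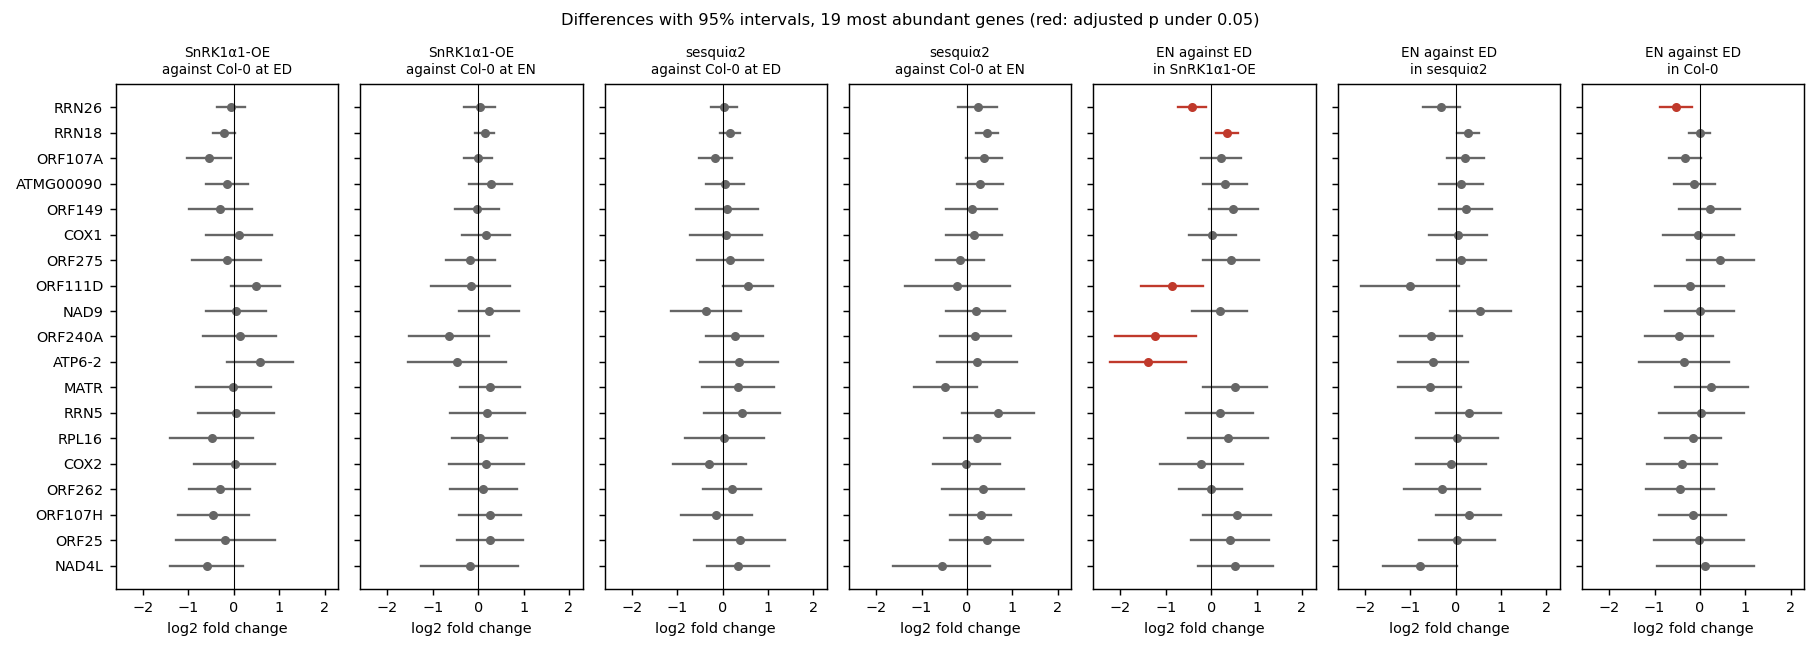
Log2 differences (points) with 95% intervals (lines) from limma for the 19 genes at 10 or more in all libraries, in 7 comparisons; red marks an adjusted p under 0.05. No red appears in the 4 panels that set a line against Col-0, 5 red genes appear in the panel of SnRK1α1-OE over time, and 1 in that of Col-0, where NAD1B is not among the genes drawn.

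The second comparison was between the end of the night and the end of the day. It yielded the only calls among the 38 genes, 3 in all and each in 1 genotype. In SnRK1α1-OE 2 of 27 genes tested were called, both lower at EN (background 17.3% called, 9.46% called lower), by limma and by edgeR alike. These were ATP6-2 and ORF240A. At an unadjusted p under 0.05 stood 5 of the 27 (background 53%). In sesquiα2 0 of 29 were called by limma and 0 by edgeR (background 17%), with 2 at an unadjusted p under 0.05 (background 55.3%). In Col-0 1 of 31 was called, NAD1B, lower at EN (background 20.8% called, 13.2% called lower), and 4 had an unadjusted p under 0.05 (background 52.3%). The median log2 difference of the mitochondrial genes was 0.19 in SnRK1α1-OE, -0.06 in sesquiα2 and -0.15 in Col-0, beside -0.03, -0.03 and -0.16 for all genes tested in the same genotypes. Median-ratio scaling moved the median of all genes in Col-0 to 0.01, and the values below are those of the deposited scaling.

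Sums of markers of mesophyll and of other tissues and states moved with time as well. Such a sum can move with the expression of its genes or with tissue make-up, and these cannot be told apart here. The summed value of 6 mesophyll markers, all detected, was 1734000 to 2081000 at EN against 1238000 to 1391000 at ED in SnRK1α1-OE, 1802000 to 1956000 at EN against 1253000 to 1315000 at ED in sesquiα2, and 1664000 to 2117000 at EN against 1088000 to 1190000 at ED in Col-0. These sums did not overlap in any genotype. Those of 5 shoot apex and cell division markers did not overlap in SnRK1α1-OE and Col-0 either, with 662.2 to 1131 at EN against 1151 to 1287 at ED in SnRK1α1-OE and 682.6 to 1236 at EN against 1254 to 2279 at ED in Col-0, and overlapped in sesquiα2. For the 2 markers of senescing leaves, of which 1 was detected, the sums were 1398 to 1774 at EN against 149.7 to 952.9 at ED in sesquiα2, and overlapped in SnRK1α1-OE and Col-0. In sesquiα2 the 5 root markers (1 detected) summed to 9.76 to 21.4 at EN against 5.85 to 8.11 at ED and the 2 flower markers (1 detected) to 1.92 to 7.77 at EN against 12.2 to 19.6 at ED, and both sums overlapped in SnRK1α1-OE and Col-0. Between a line and Col-0 the mesophyll sums at ED were higher in both lines without overlap. Root marker sums at ED were lower in sesquiα2 than in Col-0 (11.43 to 13.95) without overlap. So were flower marker sums at EN, which were 10.99 to 29.54 in Col-0. The remaining sums of a line and Col-0 overlapped. The part of these shifts in the mitochondrial values was not tested.

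ATP6-2 encodes subunit a of ATP synthase. In SnRK1α1-OE it had values of 10.5, 23.6 and 26.2 at EN against 48.4, 57.9 and 47.1 at ED. The groups did not overlap (ATP6-2, ORF240A, RRN26 and ORF111D, 4 of 27 genes, were lower in this way, background 28.5%), and the log2 difference was -1.40 (SE 0.37, limma adjusted p = 0.0131). Adjusted p stayed between 0.0117 and 0.0480 when each of the 6 libraries was left out. In sesquiα2 the values were 36.7, 22.5 and 35.4 at EN against 34.6, 61.4 and 39.0 at ED, and in Col-0 30.9, 36.9 and 15.9 at EN against 33.4, 23.7 and 48.6 at ED, with overlapping groups in both. Of the 2 copies of atp6 in the mitochondrial genome, 69.6% of the 100-base windows of copy 2 recur in copy 1, and the row ATP6-1 had a mean value of 0.105, so a count for this gene may hold reads of either copy.

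ORF240A, which has no assigned role, had 24.2, 19.8 and 12.3 at EN against 51.4, 26.8 and 60.4 at ED in SnRK1α1-OE. The highest EN value stayed below the lowest ED value, with a log2 difference of -1.23 (SE 0.40, adjusted p = 0.0306). Leaving out SnRK1α1-OE ED replicate 1, ED replicate 3, EN replicate 2 or EN replicate 3 ended this call (adjusted p up to 0.114). In sesquiα2 it had 26.1, 42.9 and 31.4 at EN against 42.7, 45.5 and 57.7 at ED, and in Col-0 29.9, 38.0 and 20.7 at EN against 40.2, 46.6 and 33.8 at ED. Both pairs overlapped.

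NAD1B, a row for part of the trans-spliced complex I gene nad1, had 2.90, 4.03 and 0.0413 at EN against 10.4, 23.9 and 13.1 at ED in Col-0. Its log2 difference was -2.54 (SE 0.72, adjusted p = 0.0241). It passed the filter on low values only through the 3 ED libraries, so a gene like it had to differ to be tested, and it is not tested once any of these is left out. The value of 0.0413 is a library in which no read was counted. In SnRK1α1-OE NAD1B had 3.84, 8.46 and 3.77 at EN against 7.21, 9.40 and 4.42 at ED, and in sesquiα2 8.53, 0.998 and 4.91 at EN against 14.2, 4.44 and 13.7 at ED.

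The best counted genes were the rRNAs RRN26 and RRN18. RRN26 in SnRK1α1-OE had 1840, 1770 and 1540 at EN against 2250, 2020 and 2720 at ED, with no overlap. Its log2 difference was -0.43 (SE 0.14, adjusted p = 0.0288). In Col-0 it had 2060, 1580 and 1450 at EN against 2630, 2200 and 2410 at ED, again without overlap, and a log2 difference of -0.52 (SE 0.15, adjusted p = 0.0260). In sesquiα2 the values were 2100, 1500 and 2440 at EN against 2270, 2890 and 2270 at ED, where the groups overlapped and the log2 difference was -0.32 (SE 0.18, adjusted p = 0.179). The fall in Col-0 missed the threshold under median-ratio scaling (log2 difference -0.35, adjusted p = 0.0754), quantile normalization (0.0631) and edgeR (0.0540), and without ED replicate 1 or 3 or EN replicate 2 or 3 (up to 0.0919). That in SnRK1α1-OE missed it when any of 4 libraries (ED replicate 1 or 3, EN replicate 2 or 3) was left out (up to 0.108).

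RRN18 was higher at EN in SnRK1α1-OE, with 1030, 1130 and 1150 at EN against 883, 849 and 863 at ED. There was no overlap, and the log2 difference was 0.35 (SE 0.11, adjusted p = 0.0242). The adjusted p lay between 0.0640 and 0.0949 without ED replicate 1, ED replicate 2, EN replicate 2 or EN replicate 3. In sesquiα2 it had 1560, 1230 and 1310 at EN against 1200, 1070 and 1120 at ED, also without overlap, at a log2 difference of 0.27 (SE 0.10, adjusted p = 0.0550), and edgeR gave 0.0397. In Col-0 it had 978, 1010 and 1010 at EN against 1040, 1060 and 926 at ED, overlapping, with a log2 difference of -0.01 (SE 0.10, adjusted p = 0.969). That last value was 0.17 under median-ratio scaling, 0.12 under quantile normalization and 0.12 with edgeR, and stayed at -0.0032 when scaled to the nuclear total. RRN5 had 19.3 to 49.7 at EN and 17.7 to 44.0 at ED over the 3 genotypes and passed in no comparison.

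**Figure D4:**
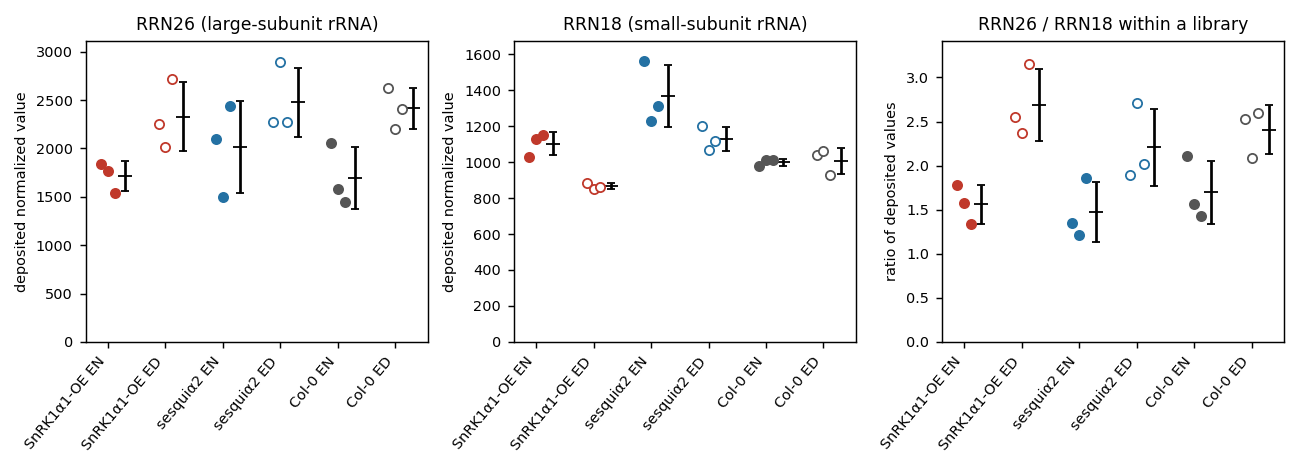
Deposited values of RRN26 and RRN18 and their ratio within each library, by group (filled points EN, open points ED; the bar beside each group is the mean ± SD of its 3 libraries). RRN26 was lower at EN in SnRK1α1-OE and Col-0 with no overlap, RRN18 higher at EN in SnRK1α1-OE and sesquiα2, and the ratio lay at 1.21 to 2.11 at EN and 1.89 to 3.15 at ED.

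A ratio of the RRN26 to the RRN18 value within a library does not depend on scaling between libraries. It was computed after the values had been seen and was not tested. It averaged 1.56 ± 0.22 at EN and 2.69 ± 0.41 at ED in SnRK1α1-OE (SD, n = 3 each), 1.48 ± 0.34 at EN and 2.21 ± 0.44 at ED in sesquiα2, and 1.70 ± 0.36 at EN and 2.41 ± 0.28 at ED in Col-0. All 3 EN libraries lay below all 3 ED libraries in SnRK1α1-OE and in sesquiα2, and in Col-0 the highest EN library (2.11) passed the lowest ED library (2.09).

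ORF111D, the reading frame beside rrn5, had 45.5, 28.3 and 22.6 at EN against 52.6, 61.1 and 57.7 at ED in SnRK1α1-OE (log2 difference -0.87, SE 0.31, adjusted p = 0.0428). That p was 0.0514 with edgeR and reached 0.129 without ED replicate 1, 2 or 3 or EN replicate 2 or 3, each of which put it past the threshold. The 5 genes that reached an adjusted p under 0.05 at any size in SnRK1α1-OE were thus ATP6-2, ORF240A, RRN26, RRN18 and ORF111D, against a background of 45.5% of all genes. RRN26 and NAD1B were the 2 in Col-0 (background 45%), and in sesquiα2 there were 0 (background 49%). In sesquiα2 ORF111D had 34.6, 12.8 and 58.3 at EN against 61.9, 62.8 and 56.6 at ED, and in Col-0 51.3, 28.3 and 28.5 at EN against 43.1, 43.6 and 35.8 at ED. Without sesquiα2 EN replicate 3, ORF111D was called in sesquiα2. ORF107A, which overlaps RRN26, had 438, 515 and 467 at EN against 300, 435 and 522 at ED in SnRK1α1-OE, 798, 586 and 500 at EN against 587, 576 and 447 at ED in sesquiα2, and 501, 414 and 507 at EN against 652, 498 and 646 at ED in Col-0. No comparison over time passed for ORF107A (adjusted p 0.121 to 0.409).

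Complex I had 7 of its 14 rows among the 38 genes (NAD9, NAD4L, NAD4, NAD5C, NAD1B, NAD5B, NAD7), with mean values of 7.60 to 42.1. NAD9, in the peripheral arm, had 51.2, 36.8 and 58.1 at EN against 43.2, 44.3 and 38.6 at ED in SnRK1α1-OE, 57.2, 43.9 and 40.1 at EN against 39.5, 25.4 and 31.3 at ED in sesquiα2, and 46.4, 45.5 and 31.5 at EN against 46, 50.6 and 28.9 at ED in Col-0. Its groups were apart only in sesquiα2, where NAD9, NAD4, ATP1 and RRN18 were higher in every EN library (background 26.1%). ATP1 passed the filter on low values only through EN, and NAD4 reached 10 in 3 EN libraries and 1 ED library, which leaves NAD9 and RRN18. NAD4L, in the membrane arm, was among the 4 genes lower in every EN library there (NAD4L, MATR, ORF313 and ATMG09730, background 31.9%), with 23.7, 11.7 and 19.7 at EN against 30.5, 31.4 and 31.3 at ED (log2 difference -0.78, SE 0.36, adjusted p = 0.104). ATMG09730 passed only through ED, where it is high, and ORF313 reached 10 in 3 ED libraries and 2 EN libraries.

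In complex IV, COX1, the catalytic subunit, had 65.7, 66.9 and 61.9 at EN against 71.0, 71.6 and 51.6 at ED in SnRK1α1-OE, 73.5, 49.8 and 73.7 at EN against 56.9, 52.0 and 81.2 at ED in sesquiα2, and 54.1, 72.2 and 49.0 at EN against 45.7, 92.4 and 48.8 at ED in Col-0. Groups overlapped in each. COX2, which takes electrons from cytochrome c, ranged from 20.2 to 36.5 at EN and from 19.8 to 47.7 at ED over all genotypes.

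Besides ATP6-2, the rows named for ATP synthase were ATP1, the alpha subunit, and ATP9, the subunit of the membrane ring, with mean values of 11.5 and 12.3. In the reference atp4, another ATP synthase gene, lies 267 bases from nad4L on its strand, and no row carries that name. Whether ORF25 (mean value 26.7) is atp4 was not resolved. ATP9 had 7.72, 6.31 and 8.76 at EN against 17.3, 16.9 and 13.1 at ED in Col-0, with a log2 difference of -0.96 (SE 0.38, adjusted p = 0.0772). It passed the filter there only through the ED libraries, so the absence of overlap was fixed by that. ATP1 in sesquiα2, which passed only through EN, had 10.9, 12.7 and 15.8 at EN against 8.11, 8.61 and 4.86 at ED. Both genes were copied over their whole length in the nucleus.

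For cytochrome c maturation 3 of 5 rows met the threshold, CCB206 (ccmB), CCB382 (ccmFN1) and CCB452 (ccmFC), with mean values of 7.87 to 16. CCB206 had no read in 1 library, sesquiα2 EN replicate 2, beside 19.1 and 6.82 in the other libraries of its group. In Col-0 it was lower in every EN library, with 11.6, 15.4 and 11.8 at EN against 19, 40.8 and 15.8 at ED. Of the rows with ribosomal protein names 3 of 6 met it, RPL16, RPL2 and RPSL2, with mean values of 6.79 to 31.1. In the reference rps3 overlaps rpl16 by 134 bases, and no row carries that name. Whether ATMG00090 (mean value 103.8), the row after RPL16, is rps3, a ribosomal protein gene, was not resolved. MATR, the maturase encoded within an intron of nad1 (MT:231089-233059), had 29.2, 24.4 and 24.5 at EN against 44.6, 43.9 and 30.2 at ED in sesquiα2, and lay apart there but not in SnRK1α1-OE (34.7, 51.8 and 46.9 at EN against 37.0, 21.4 and 35.1 at ED).

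Among the reading frames and rows with no name, ATMG00090, whose role was not resolved, was the best counted after ORF107A. It had 137, 107 and 97.7 at EN against 101, 77.2 and 98.1 at ED in SnRK1α1-OE. ORF149 had 86.9, 123 and 109 at EN against 78.2, 59.4 and 90.4 at ED in the same line, and ORF275 73.5, 56.6 and 53.5 at EN against 53.4, 33.0 and 50.0 at ED. ORF275 and RRN18 were the 2 genes higher in every EN library of SnRK1α1-OE (background 26.8%). ORF149 and ORF275 stand 502 bases apart on the same strand. In Col-0, 0 genes were higher in every EN library (background 21.1%) and 6 were lower (background 34.5%). Of these 6, ATP9, NAD1B and ORF294 passed the filter only through ED, and RRN26, CCB206 and ORF262 reached 10 in all libraries of both groups. ORF262 and ORF294 are named only to account for this count.

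Whether the lines changed the difference between EN and ED was tested with an interaction term on 12 libraries. For SnRK1α1-OE 0 of 35 genes passed an adjusted p of 0.05 with limma and 0 with edgeR (background 0.21%), and 2 had an unadjusted p under 0.05 (background 20.5%). The lower adjusted p of these was that of RRN18, with a difference of 0.36 on the log2 scale (SE 0.12, adjusted p = 0.158). The other was NAD1B (2.18, SE 0.90, adjusted p = 0.208), again tested only through the Col-0 ED libraries. For sesquiα2 0 of 37 passed with limma, 0 with edgeR (background 0.815%) and 0 had an unadjusted p under 0.05 (background 17.2%). In the SnRK1α1-OE interaction ATP6-2 had -1.05 (SE 0.58, limma adjusted p = 0.317) and ORF240A -0.77 (SE 0.52, adjusted p = 0.411). Thus ATP6-2, ORF240A and NAD1B were called in 1 genotype each, and neither interaction passed for any of them.

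As a share of the library, the 38 genes took 0.0110% ± 0.000368 at EN and 0.0118% ± 0.00112 at ED in SnRK1α1-OE, 0.0130% ± 0.00204 at EN and 0.0135% ± 0.000963 at ED in sesquiα2, and 0.0106% ± 0.000851 at EN and 0.0131% ± 0.0006 at ED in Col-0 (SD, n = 3 each). In Col-0 all 3 EN libraries lay below all 3 ED libraries, also with RRN26, RRN18 and RRN5 left out of the sum. Without these rRNAs the ratio of EN to ED in SnRK1α1-OE was 1.04, where it was 0.93 with them. Chloroplast-encoded genes took 1.09% ± 0.167 at EN and 0.889% ± 0.106 at ED in Col-0.

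Over time, a number of the nuclear genes that act on the mitochondrial genome and its RNA were lower at EN. Of 16 nuclear factors of mitochondrial RNA and DNA, 4 were called lower at EN in SnRK1α1-OE, 6 in sesquiα2 and 9 in Col-0, none was called higher, and the median log2 difference was -0.51, -0.72 and -1.04 in the same order. Backgrounds for calls in the lower direction were 9.46%, 8.59% and 13.2%. PNP2, a polynucleotide phosphorylase that degrades and trims RNA, had 194, 110 and 93.0 at EN against 408, 590 and 357 at ED in SnRK1α1-OE (log2 difference -1.80), 187, 149 and 170 at EN against 576, 782 and 737 at ED in sesquiα2 (-2.04), and 122, 79.4 and 105 at EN against 775, 789 and 788 at ED in Col-0 (-2.95). AT5G15700, annotated as a DNA/RNA polymerase family protein, had log2 differences of -1.46 in SnRK1α1-OE, -2.06 in sesquiα2 and -2.41 in Col-0. Those of the pentatricopeptide repeat gene AT3G48250 were -1.31, -1.79 and -2.19 in these genotypes, and those of the intron maturase gene NMAT2 -1.48, -1.24 and -1.74. All were called. In the comparisons of a line with Col-0 and in the interactions 0 genes of the list were called, where 0.067% to 1.21% of all genes were.

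Of 34 nuclear subunits of the respiratory chain and ATP synthase only CYTC-2, a cytochrome c gene, was called over time (background for calls in the higher direction 7.88% in SnRK1α1-OE, 8.39% in sesquiα2 and 7.63% in Col-0). It had 1140, 740 and 763 at EN against 348, 365 and 405 at ED in SnRK1α1-OE, 896, 988 and 939 at EN against 365, 423 and 342 at ED in sesquiα2, and 1050, 818 and 763 at EN against 376, 324 and 368 at ED in Col-0, higher by 1.21, 1.32 and 1.29 on the log2 scale in these genotypes. Smaller falls with an adjusted p under 0.05 were found in 6, 18 and 17 of the 34 genes, against 24.3%, 26.8% and 28.9% of all genes. The list's medians were -0.16, -0.25 and -0.31. For the 113 chloroplast-encoded genes the medians were 0.24, 0.21 and 0.41, with 1 gene called in each genotype, higher at EN (RPOC1 in SnRK1α1-OE, NDHB.2 in sesquiα2, by 1.26 on the log2 scale, and ATPA in Col-0, by 1.14), against the same backgrounds of 7.88%, 8.39% and 7.63%.

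**Figure D5:**
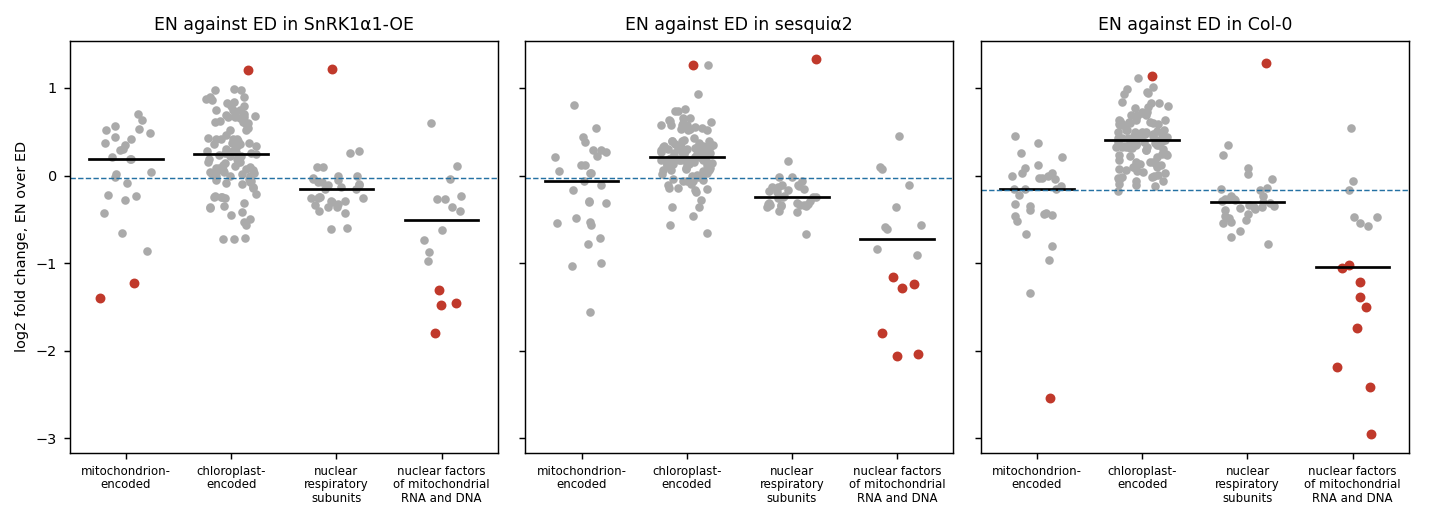
Log2 differences of EN over ED in the 3 genotypes for 4 gene lists (1 point a gene tested, sideways scatter without meaning; red, called; black bar, median of the list; dashed blue line, median of all genes tested). The red points of the nuclear factors of mitochondrial RNA and DNA lie below -1 in each panel, and their medians of -0.51, -0.72 and -1.04 are the lowest of the 4 lists.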

How the data were processed

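RNA was extracted from whole rosettes, captured on poly(T), and sequenced as paired reads of 150 bases. The submitters' processing notes and the supplementary text name HISAT2, SAMtools, featureCounts, edgeR and TAIR10. The deposited signal values are edgeR pseudo-counts multiplied by the TMM factor, as the authors computed them, for 32833 genes and 18 libraries. Treatment of reads that map to several places, and of strand, is not given in the sources used here. Whole reads were recovered by inverting this calculation, and running it forward gave all 590994 values back to a relative tolerance of 1e-06. Libraries held 35050877 to 40416618 reads and deposited totals were 37929523 to 37930213. With totals this close, a deposited value stands for a gene's share of its library, and the main limma fits compare such shares.

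To be tested, a gene needed 10 or more in 3 or more libraries of the fit and a summed value of 15 or more. Differences were tested with limma (version 3.58.1, R 4.3.3) on log2(value + 1), with the trend and robust settings of eBayes and Benjamini-Hochberg adjustment over all genes. A log2 difference on this scale understates the change of genes with low values. Fits took the 6 libraries of a pair of groups (a line and Col-0 at 1 time, or EN and ED of 1 genotype), and interactions 12. The study analysed each comparison on its own libraries too. Nothing says that replicates came from separate sowings, so p-values measure the spread between these pools. Both lines were compared with the same Col-0 libraries.

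Alternatives were a membership threshold of 100, pseudocounts of 0.125 and 4, no filter, median-ratio, quantile and nuclear-total scaling, all 18 libraries in 1 fit, the replicate number as a block, edgeR's quasi-likelihood test (version 4.0.16) on the recovered reads, and leaving out each library. Exact copies were sought by 100-base windows in TAIR10.1, within which 30 of the 38 genes matched by name. Named are all genes whose row names give a known role, called genes and the 5 best counted of unassigned function. Named too are the 3 on either side of the threshold, and up to 3 called genes of each list and direction. ORF25 is named for its place beside NAD4L. The members and lists were chosen with earlier results of these data known. The lists were nuclear respiratory subunits, alternative respiration and mitochondrial stress genes, nuclear factors of mitochondrial RNA and DNA, chloroplast-encoded genes, and nuclear copies of mitochondrial genes.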

Additional observations from a re-analysis of the deposited data

How the results depend on the processing

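In all 4 comparisons of a line with Col-0 and in both interactions the count of called mitochondrial genes was 0 under each alternative that was run. Over time the counts were small enough for 1 gene to move them. With a membership threshold of 100, which leaves 5 genes, the counts were 0 in SnRK1α1-OE (2 before) and 0 in Col-0 (1 before). The lower pseudocount gave 0 in Col-0, and 1 fit of all 18 libraries gave 2 there (NAD1B and ORF294). Quantile normalization gave 1 in sesquiα2, ATMG09730. ORF294 and ATMG09730 are named here because their calls were seen. Leaving out a library gave 1 to 3 calls in SnRK1α1-OE, 0 to 1 in sesquiα2 and 0 to 1 in Col-0. The 1 call in SnRK1α1-OE was ATP6-2 without ED replicate 1, ED replicate 3, EN replicate 2 or EN replicate 3. The 0 in Col-0 was found without each ED library in turn, as NAD1B was then not tested.

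The log2 difference of RRN18 between EN and ED in Col-0 was -0.01 and turned positive under median-ratio scaling (0.17), quantile normalization (0.12) and edgeR (0.12), and ranged from -0.065 to 0.029 over the libraries left out. The share of the library in the 38 genes, EN over ED in SnRK1α1-OE, was 0.93 and became 1.04 without the rRNA genes. The second change is that of leaving these genes out of the sum. Why RRN18 moved with the scaling was not tested.

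Replicate numbers are shared between groups but did not pair the samples. Correlations of same-numbered deviations ran from -0.39 to 0.50, and in 0 of 7 comparisons were all 3 over 0.1. A replicate block left the 9 counts of called genes as they were (2 in SnRK1α1-OE, 1 in Col-0, otherwise 0), and with it RRN26, RRN18 and ORF111D in SnRK1α1-OE had adjusted p of 0.0623, 0.0646 and 0.0669.

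Limits: mitochondrial RNA reached these libraries through poly(T) capture, the 38 genes hold under 0.015% of reads, the counting of reads shared with nuclear copies is not stated, and neither is that of strand.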

Other observations

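Alternative respiration and mitochondrial stress genes of the nucleus (12 genes, 9 or 10 of them tested per comparison) were led over time by NDA1, an alternative NAD(P)H dehydrogenase of the inner membrane. NDA1 had 3970, 5860 and 5530 at EN against 209, 269 and 241 at ED in SnRK1α1-OE, 5620, 6210 and 5120 at EN against 349, 278 and 253 at ED in sesquiα2, and 4290, 5600 and 5260 at EN against 268, 240 and 219 at ED in Col-0. Its log2 differences were 4.40, 4.27 and 4.37, called in each genotype with limma (background for calls in the higher direction 7.88% in SnRK1α1-OE, 8.39% in sesquiα2 and 7.63% in Col-0). AOX3, an alternative oxidase gene, was called higher at EN in SnRK1α1-OE (2.20) and sesquiα2 (3.19). In Col-0 AOX3 had 102, 199 and 117 at EN against 0, 218 and 83.8 at ED and was not called. AOX1C was called lower in SnRK1α1-OE, with 0, 5.65 and 9.32 at EN against 14.5, 27.2 and 17.2 at ED (background 9.46% called lower). It passed the filter on low values only through ED, so it had to differ to be tested. Between a line and Col-0, 0 genes of the list were called by limma, where 0.067% to 1.21% of all genes were. The list's medians over time were 0.37 in SnRK1α1-OE, 0.41 in sesquiα2 and -0.26 in Col-0.

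Of the 125 nuclear genes that consist of copied mitochondrial sequence, 9 to 12 were tested in each comparison of 6 libraries, and 0 were called between a line and Col-0 by limma, where 0.067% to 1.21% of all genes were. Over time the backgrounds for calls in the lower direction were 8.59% in sesquiα2 and 13.2% in Col-0. AT2G07739 was called lower at EN in sesquiα2, with 23.7, 18.5 and 17.6 at EN against 46.7, 40.8 and 38.1 at ED (log2 difference -1.04), and in Col-0, with 20.3, 10.6 and 13.7 at EN against 36.5, 26.7 and 31.2 at ED (-1.07). AT2G07667 was called lower in Col-0 (-1.20), with 5.80, 5.20 and 4.90 at EN against 15.4, 12.9 and 12.2 at ED, and passed the filter only through these ED libraries. Whether these reads came from the nuclear or the mitochondrial sequence cannot be told apart.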
